A study of Mus musculus with 9 samples.

Results

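The muscle miRNAs are a small set of microRNAs made mainly in skeletal muscle and heart. The 6 examined here are mmu-miR-1a-3p, mmu-miR-133a-3p, mmu-miR-133b-3p, mmu-miR-206-3p, mmu-miR-208a-3p and mmu-miR-208b-3p, chosen by name from the 1915 mouse miRNA identifiers in the files. Of these 6, 5 were listed above 0 in any library, 4 were listed in all 9 libraries, and the same 4 passed the filter on low counts. The libraries were made from extracellular vesicles, the membrane-bound particles that cells release, of mouse podocytes grown as a conditionally immortalized line. In the kidney, podocytes cover the filtering capillaries with their foot processes, and these cells multiply at a low temperature and mature once moved to 37 °C. Maturation took 10 days with 5% fetal bovine serum (FBS) in the medium, and the cells were then held for 48 h in 1 of 3 media, with 3 libraries each. These were normal glucose (5.3 mM), mannitol (5.3 mM glucose with 24.7 mM mannitol, the osmolality control) and high glucose (30 mM). All groups shared the cell line, the serum and the recovery of vesicles with ExoQuick-TC, a polymer that also brings down other RNA carriers of the medium. Whether the 3 libraries of a treatment are separate cultures is not stated in the labels, so the spread that the p-values measure is that between these samples and may be technical.

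A miRNA is cut from a hairpin precursor and guides Argonaute proteins to messenger RNAs that pair with its seed, the bases near its 5′ end. In muscle, miR-1, miR-133 and miR-206 are switched on by the myogenic transcription factors, and miR-1 and miR-206 are known to promote differentiation of muscle cells. Transcripts that hold miR-1 also hold miR-133a, and miR-206 and miR-133b likewise come from a shared locus, which is active in skeletal muscle. miR-208a and miR-208b lie within the cardiac myosin heavy chain genes. Muscle miRNAs are also found in the blood plasma, where they are measured as markers of muscle and heart injury.

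The mature sequences are shown because shared seeds are what makes these miRNAs a few families. They were read from the RefSeq table for GRCm38.p6, in which 4 of the 6 matched, and capitals mark the seed (bases 2 to 8).
miR-206-3p: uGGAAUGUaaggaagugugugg
miR-133b-3p: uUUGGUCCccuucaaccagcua
miR-208a-3p: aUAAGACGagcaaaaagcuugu
miR-208b-3p: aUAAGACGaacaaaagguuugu
miR-499-5p: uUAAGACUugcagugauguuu
The last, miR-499-5p, is the miRNA of the related myosin gene Myh7b and is described below with other striated-muscle miRNAs. miR-208a-3p and miR-208b-3p share the seed UAAGACG and differ at 3 of 22 bases, G10A, A16G and C18U, counted from 1 at the 5′ end with the base of miR-208a-3p first. miR-499-5p shares their bases 2 to 7, UAAGAC, but not base 8. Among 1679 mature names in the table, the seed of miR-206-3p, GGAAUGU, also occurred in miR-6349 and miR-6382, both listed at 0 in every library. The seed of miR-133b-3p, UUGGUCC, occurred in no other name of that table. The members miR-1a-3p and miR-133a-3p had no sequence there, so a seed shared with either could not be found by this search.

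The hairpins of miR-206 and miR-133b are neighbours in the genome. In GRCm38 (GENCODE release M21) Mir206 lies at chr1:20679010-20679082 on the plus strand, in an intron of the long noncoding RNA gene Gm28653. Mir133b follows at chr1:20682769-20682887 on the same strand, where it overlaps an exon of 2 Gm28653 transcripts, and 3686 bases separate the hairpins. The Mir206 hairpin is shown with its 3p arm, the member measured here, in capitals, since the counts of this hairpin lay on that arm.
Mir206 hairpin: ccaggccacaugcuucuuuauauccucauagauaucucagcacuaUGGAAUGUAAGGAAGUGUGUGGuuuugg
Mir208a (chr14:54949060-54949142, minus strand) lies in an intron of Myh6 and Mir208b (chr14:54975700-54975776, minus strand) in an intron of Myh7, with 26557 bases between them. The labels do not state how reads that fit near-identical miRNAs were counted, so the split of reads between miR-133a-3p and miR-133b-3p, and between miR-208a-3p and miR-208b-3p, is uncertain.

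Levels are given as CPM, the share of a miRNA in all miRNA counts of its library, in parts per 1000000. Total miRNA counts ranged from 725211 to 2553690 per library. The lowest count above 0 was 10 in these files, so that a value listed at 0 can hide up to 9 reads, which would be 3.52 to 12.4 CPM. Intervals on single values are 95% exact binomial (Clopper-Pearson) intervals, which cover counting error only.

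miR-206-3p, the skeletal-muscle member of the miR-1 seed family, was the most abundant of the 6 in 8 of 9 libraries and was the steadiest. Its level was 1404, 2221 and 1813 CPM in normal glucose, 1616, 998.3 and 1655 CPM with mannitol, and 1340, 1144 and 1187 CPM in high glucose (replicates 1, 2 and 3). In CPM the 3 high glucose libraries all lay below the 3 normal glucose libraries, while mannitol spanned both. The nearest of them, at 1340 and 1404 CPM, had intervals of 1257 to 1427 and 1345 to 1464 CPM. Groups were apart in this way for 9.42% of the miRNAs tested. With the deposited normalized values (RPM) the 2 groups overlapped, at 45.9 to 95.1 in high glucose and 88.9 to 101 in normal glucose. It ranked 56 to 75 among the 296 to 419 miRNAs listed per library. Its highest library was 2.23-fold above its lowest, against a median of 2.59-fold for the 260 miRNAs listed in all libraries, which put it at place 164 from the most variable. The group means were 1813 ± 409 CPM in normal glucose, 1423 ± 368 CPM with mannitol and 1224 ± 103 CPM in high glucose (SD, n = 3 each). Almost all signal came from the 3p arm: miR-206-5p was listed at 0 in all 9 libraries, against 972 to 3757 reads of miR-206-3p.

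miR-1a-3p, the main miRNA of differentiated skeletal muscle and heart, varied more between libraries than any other miRNA listed in all 9. Its level was 55.9, 120.5 and 916.7 CPM in normal glucose, 122.6, 207.7 and 3822 CPM with mannitol, and 302.0, 131.6 and 170.3 CPM in high glucose. Mannitol replicate 3 and normal glucose replicate 3 stood far above the other 7, which lay between 55.9 and 302.0 CPM. Among those 7, mannitol and high glucose overlapped, and normal glucose replicates 1 and 2 lay below both. The 3822 CPM of mannitol replicate 3 rested on 8676 reads (interval 3743 to 3904 CPM), an interval much narrower than its distance from the rest. That library was 25.3-fold above the median of the other 8 (151 CPM) and 4.17-fold above the next.

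The 68.4-fold span of miR-1a-3p was the widest of all 260 miRNAs. Within normal glucose its highest library was 16.4-fold above its lowest and within mannitol 31.2-fold, again the widest of the 260, where the medians of all were 1.65-fold and 1.82-fold. In high glucose the span was 2.29-fold (median of all 1.56-fold), at place 35. The group means were 364 ± 479 CPM in normal glucose, 1384 ± 2112 CPM with mannitol and 201 ± 89.3 CPM in high glucose (SD, n = 3 each). In the first 2 groups the SD exceeded the mean, and 1 library set each: the mannitol mean was 165 ± 60.2 CPM without replicate 3, and the normal glucose mean was 88.2 ± 45.7 CPM without replicate 3 (n = 2 each).

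**Figure D1:**
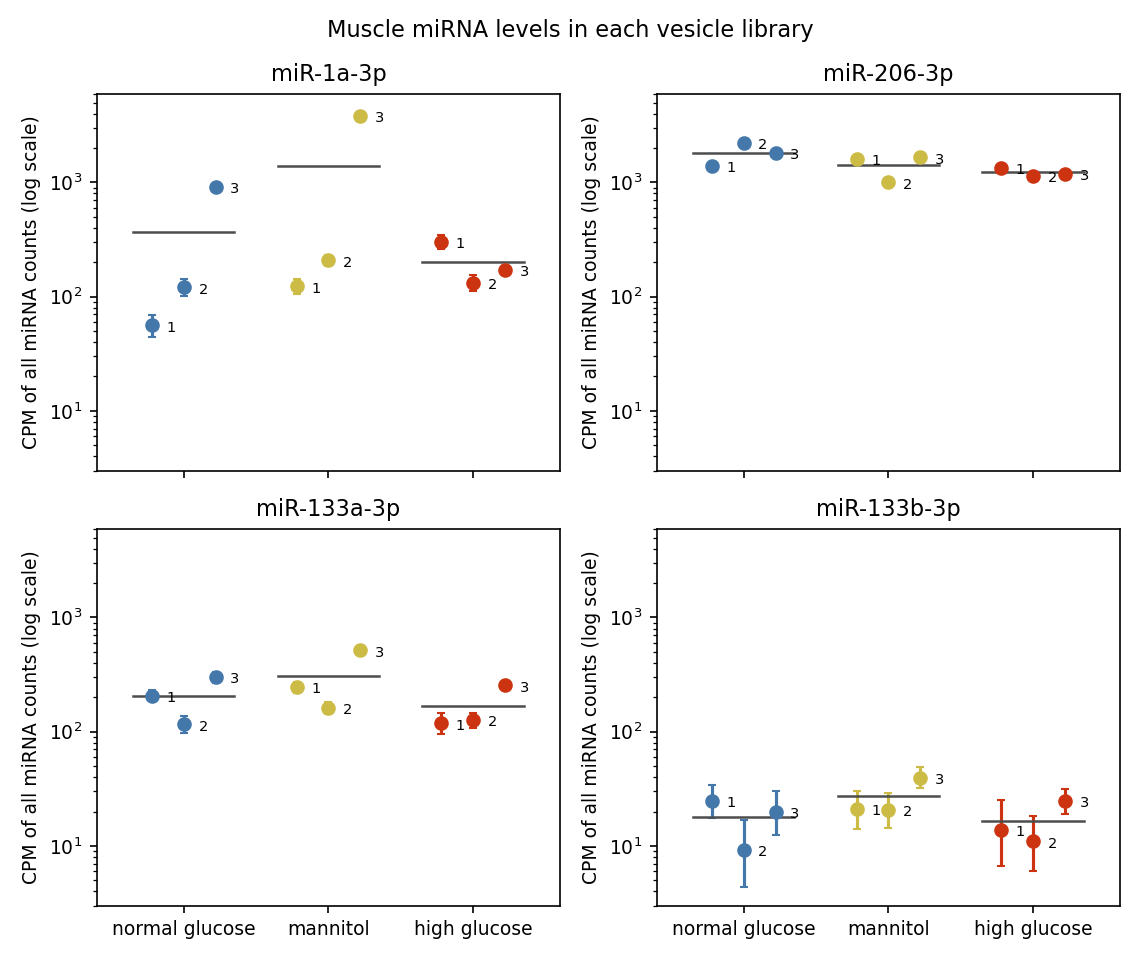
Level of the 4 muscle miRNAs listed in all libraries, in CPM of all miRNA counts on a log axis, by treatment. Each point is 1 library with its replicate number and 95% exact binomial interval, and lines are group means; miR-1a-3p reached 3822 CPM in mannitol replicate 3 and 55.9 CPM in normal glucose replicate 1, while miR-206-3p stayed between 998.3 and 2221 CPM.

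**Figure D2:**
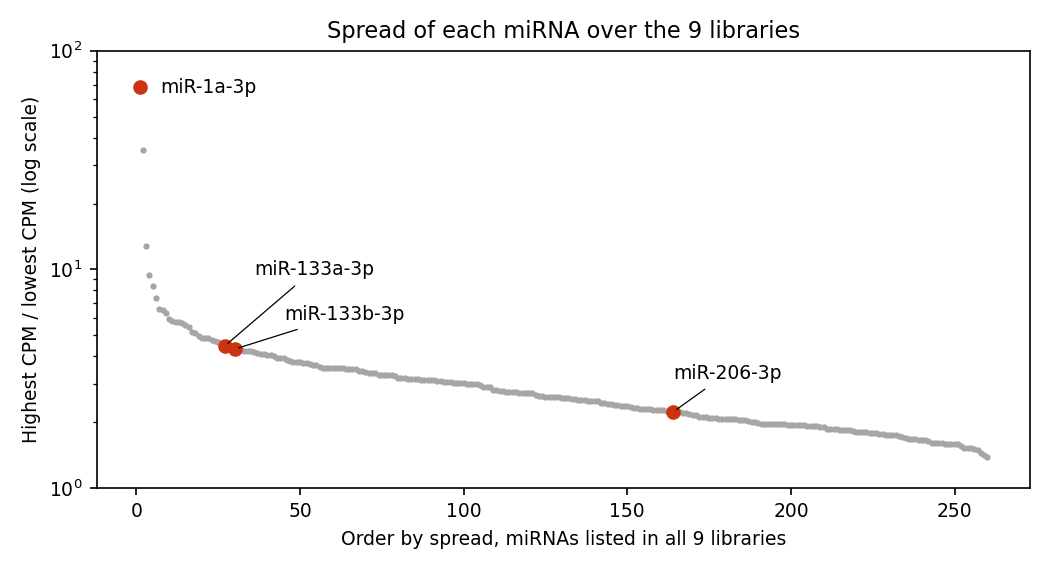
Highest library divided by lowest library, in CPM on a log axis, for the 260 miRNAs listed in all 9 libraries, ordered from the widest span. Red points mark the muscle miRNAs: miR-1a-3p was first at 68.4-fold, miR-133a-3p and miR-133b-3p were at places 27 and 30, and miR-206-3p was at place 164.

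miR-133a-3p, the partner of miR-1 in its transcripts and known to promote the growth of muscle precursor cells, was of middling abundance. Its level was 206.6, 115.9 and 299.8 CPM in normal glucose, 246.0, 162.4 and 516.4 CPM with mannitol, and 118.6, 126.1 and 254.5 CPM in high glucose. Replicate 3 was the highest library in each group, and the groups overlapped. The group means were 207 ± 92.0, 308 ± 185 and 166 ± 76.4 CPM in that order of groups (SD, n = 3 each), and the mannitol mean was 204 ± 59.1 CPM without replicate 3 (n = 2).

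miR-133b-3p, made beside miR-206, stood about an order of magnitude lower. Its level was 24.7, 9.20 and 19.9 CPM in normal glucose, 21.1, 20.8 and 39.7 CPM with mannitol, and 13.8, 11.0 and 24.7 CPM in high glucose. These values rested on 10 to 90 reads, so that the 9.20 CPM of normal glucose replicate 2 had an interval of 4.41 to 16.9 CPM. Mannitol replicate 3 was again the highest, and the groups overlapped. The group means were 17.9 ± 7.92, 27.2 ± 10.8 and 16.5 ± 7.24 CPM (SD, n = 3 each).

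The miR-208 pair, which marks heart and slow muscle fibres, was at or near the limit of the files. miR-208a-3p was listed at 0 in all 9 libraries. miR-208b-3p was listed with 10 reads, the lowest count in the files, in replicate 3 of each group and at 0 in the other 6 libraries. Those 10 reads were 9.03 CPM in normal glucose, 4.41 CPM with mannitol and 3.92 CPM in high glucose. As the listed zeros can hold up to 9 reads, no difference between libraries was detectable at this depth for this miRNA.

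The mix of the members therefore differed between libraries. miR-206-3p made up 71.9% to 90.0% of the summed muscle miRNA counts in 7 libraries, 59.3% in normal glucose replicate 3 and 27.4% in mannitol replicate 3. miR-1a-3p made up 63.3% in mannitol replicate 3, 30.0% in normal glucose replicate 3 and 3.30% to 17.0% in the others. The summed level was 1691, 2467 and 3058 CPM in normal glucose, 2005, 1389 and 6038 CPM with mannitol, and 1775, 1412 and 1640 CPM in high glucose. Mannitol replicate 3 was thus the highest library of the sum as well, and the mannitol mean of 3144 ± 2525 CPM (SD, n = 3) was 1697 ± 436 CPM without it (n = 2).

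The members that derive from shared transcripts did not keep 1 ratio. miR-133a-3p was 0.135 to 3.70 times miR-1a-3p, although both come from the same primary transcripts. miR-206-3p was 41.7 to 241.5 times miR-133b-3p, its neighbour on chromosome 1. The 241.5 was in normal glucose replicate 2, where miR-133b-3p had 10 reads, and the next highest ratio was 104.3. The steadiest ratio was that of miR-133a-3p to miR-133b-3p, which come from different loci but are nearly the same sequence, at 7.82 to 15.1 (11.0 ± 2.43, SD, n = 9 libraries). Over the 9 libraries the Pearson correlation of their log2(CPM + 10) was 0.904, and 0.762 without mannitol replicate 3 and normal glucose replicate 2. That of miR-133a-3p with miR-1a-3p was 0.693, and -0.338 without mannitol replicate 3 and normal glucose replicate 3, on which it rested. That of miR-206-3p was 0.237 with miR-1a-3p, 0.188 with miR-133a-3p and -0.106 with miR-133b-3p. Without normal glucose replicate 2 and mannitol replicate 2, the libraries farthest from its median, these were 0.572, 0.659 and 0.485, so that the sign with its neighbour miR-133b-3p turned. All libraries share the scaling to their total, and these correlations are given as a description.

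**Figure D3:**
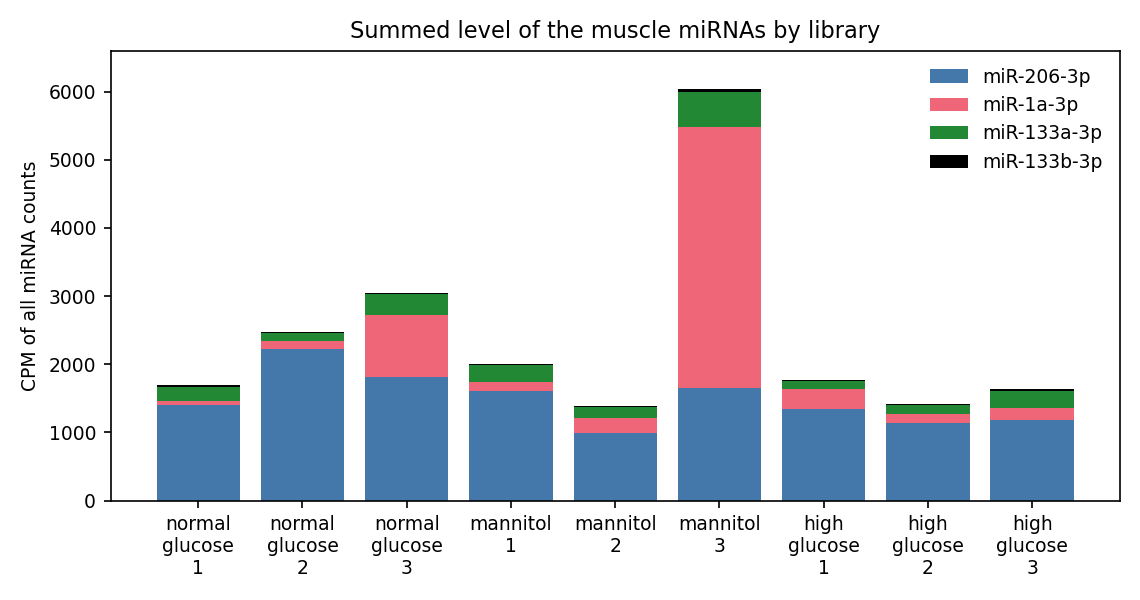
Summed level of the muscle miRNAs in each library, stacked by miRNA, in CPM of all miRNA counts. miR-206-3p fills most of the bar in all libraries other than mannitol replicate 3, where miR-1a-3p makes up 63.3% of a sum of 6038 CPM.

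The comparison of high glucose with normal glucose asks which vesicle miRNAs differ with the glucose of the medium, and no member passed the test. All fold changes are log2 values from a joint edgeR fit of the 9 libraries, above 0 where the first group named is higher, with Benjamini-Hochberg adjustment of p over the 361 miRNAs tested. For miR-206-3p the log2 fold change was -0.50 (SE 0.30, 95% interval -1.14 to 0.13, unadjusted p = 0.112, adjusted p = 0.995). Its CPM were lower in high glucose in 9 of 9 pairs of libraries, and the ratio of means was 0.675. The exact two-sided permutation test gave p = 0.1, the smallest that 3 against 3 allows, and 0.8 when adjusted over the 12 such tests (4 miRNAs in 3 comparisons). For miR-1a-3p it was -0.71 (SE 1.5, interval -4.30 to 2.88), yet high glucose was the higher in 6 of 9 pairs, and without normal glucose replicate 3 the value was 1.13. miR-133a-3p had -0.16 (SE 0.45, interval -1.11 to 0.79), and 0.09 without normal glucose replicate 3 or 0.06 without high glucose replicate 1. miR-133b-3p had 0.02 (SE 0.69, interval -1.45 to 1.49), and -0.25 without normal glucose replicate 2 or -0.44 without high glucose replicate 3. The edgeR adjusted p was 0.995 for each of these. The intervals leave room for differences in either direction, widest for miR-1a-3p.

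The counts of members stand beside those of all 361 miRNAs tested. In this comparison 0% of them were past an adjusted p of 0.05 in edgeR and 2.77% past an unadjusted p of 0.05, against 0 of 4 members by either rule. Groups did not overlap in CPM for 9.42% of miRNAs and for 1 of 4 members, miR-206-3p. Values lay below 0 for 53.5% of miRNAs and for 3 of 4 members, with a median of -0.33 against -0.04 over all tested.

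The comparison of high glucose with mannitol, which holds osmolality alike, turned on 1 library for miR-1a-3p. Its log2 fold change was -2.70 (SE 1.58, interval -6.48 to 1.08, edgeR adjusted p = 0.712) with all libraries and 0.36 (SE 1.06, interval -2.15 to 2.86) without mannitol replicate 3. High glucose was the higher in 4 of 9 pairs. miR-133a-3p had -0.71 (SE 0.45, interval -1.67 to 0.24, edgeR adjusted p = 0.710), and -0.08 without that library. miR-133b-3p had -0.56 (SE 0.69), and -0.17 without it. miR-206-3p, at -0.05 (SE 0.30, interval -0.69 to 0.58), went to 0.09. The exact permutation tests of the 4 gave p from 0.3 to 0.7, and the groups overlapped for all 4.

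Here too no member passed, with 0 of 4 by the adjusted and by the unadjusted rule, where 0% and 5.26% of the 361 did. Groups did not overlap for 10.2% of all tested and 0 of 4 members. All 4 members lay below 0, against 53.5% of all tested, with a median of -0.64 against -0.04. Without mannitol replicate 3, miR-133a-3p and miR-133b-3p lay below 0 and the other 2 above.

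The comparison of mannitol with normal glucose gives the log2 fold change for the osmolality control. For miR-1a-3p it was 1.99 (SE 1.54, interval -1.68 to 5.66), and -1.07 (SE 1.08) without mannitol replicate 3. miR-133a-3p had 0.55 (SE 0.45) and miR-133b-3p 0.58 (SE 0.69), and -0.08 and 0.19 without that library. miR-206-3p had -0.45 (SE 0.30, interval -1.08 to 0.19), and -0.60 without it. The adjusted p in edgeR was 0.9996 for each of them, and exact permutation tests gave p from 0.4 to 0.6. Of the 361 miRNAs 0% were past the adjusted threshold in edgeR, 1.39% were past an unadjusted p of 0.05 and for 3.32% the groups did not overlap, against 0 of 4 members by each rule. Values lay below 0 for 47.9% of all tested and for 1 of 4 members, miR-206-3p, with a median of 0.57 against 0.01. The 3 comparisons share groups, so their values for a member are not independent of each other.

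**Figure D4:**
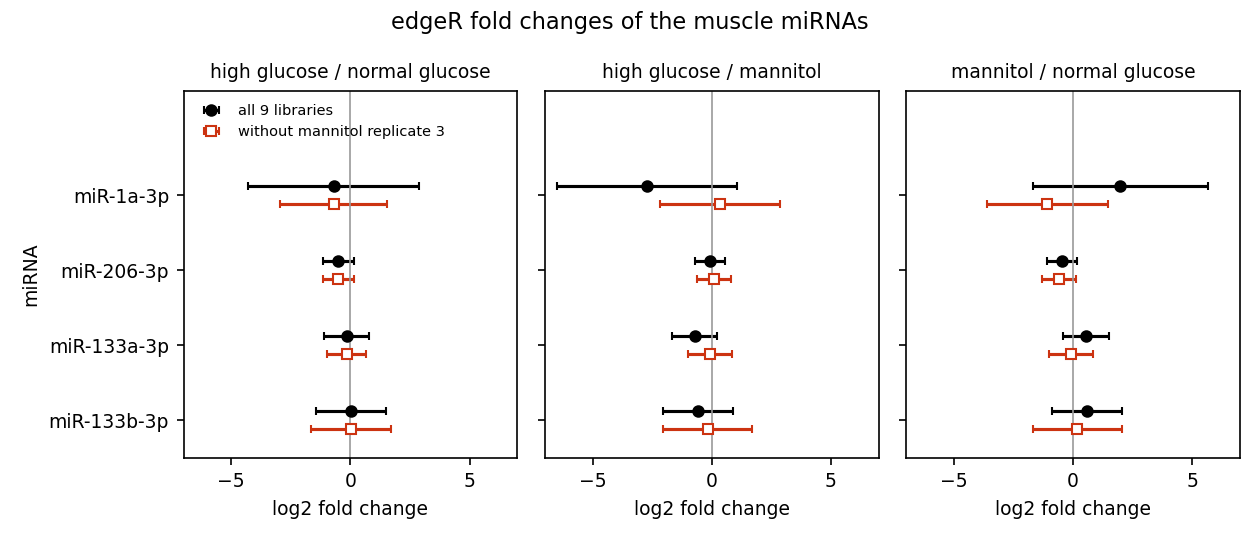
edgeR log2 fold changes of the 4 tested muscle miRNAs in each comparison, with 95% intervals. Black points use all 9 libraries and open red squares leave out mannitol replicate 3, which moves miR-1a-3p from -2.70 to 0.36 for high glucose over mannitol and from 1.99 to -1.07 for mannitol over normal glucose.

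The call for miR-1a-3p also depended on how the spread was estimated. In the fit with the filter on low counts its test had 6.68 degrees of freedom, where the other 3 members had 15.1, because the robust option lets a variable miRNA keep more of its own spread. Without the filter (479 miRNAs) all miRNAs were given a common spread with 2874 degrees of freedom. The adjusted p in edgeR was then 5.258e-12 for high glucose against mannitol (log2 fold change -2.78) and 1.613e-06 for mannitol against normal glucose (2.08). Over all alternatives the adjusted p of miR-1a-3p ranged up to 0.9998 and 0.9997 in these comparisons. The levels in mannitol replicates 1 and 2 (122.6 and 207.7 CPM) lay within the range of normal glucose. They were above normal glucose replicates 1 and 2 (55.9 and 120.5 CPM), and replicate 3 set the top of that range (916.7 CPM). DESeq2 gave no p-value for miR-1a-3p.

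Other striated-muscle miRNAs were mostly not listed. Of a list of 16, which held the other arms and copies of the members as well as miR-499 and miR-486, 12 were at 0 in all libraries, among them miR-133b-5p, miR-1b-3p, miR-133c and both 5p arms of the miR-208 pair. miR-499-5p, made within Myh7b (chr2:155622880-155622958, plus strand) and known from heart and slow fibres, was listed in every library. Its level was 74.0, 132 and 154 CPM in normal glucose, 88.0, 226 and 128 CPM with mannitol, and 59.3, 172 and 143 CPM in high glucose. Unlike miR-1a-3p it was highest in mannitol replicate 2, not in replicate 3. Its log2 fold changes were 0.20 (SE 0.49) for high glucose against normal glucose, -0.08 (SE 0.49) against mannitol and 0.28 (SE 0.49) for mannitol against normal glucose.

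miR-486a-5p and miR-486b-5p, known from muscle and from red blood cells, had identical counts in every library and cannot be told apart. Their level was 5773, 8483 and 4780 CPM in normal glucose, 8628, 3627 and 10582 CPM with mannitol, and 4298, 2985 and 3758 CPM in high glucose. In CPM high glucose lay below normal glucose in all libraries, as for miR-206-3p, and overlapped mannitol. With the deposited normalized values (RPM) the miR-486 pair, like miR-206-3p, overlapped between these groups. The pair stood at 147 to 301 in high glucose and 234 to 402 in normal glucose. The log2 fold changes were -0.75 (SE 0.36), -0.88 (SE 0.36, unadjusted p = 0.0280 in edgeR, adjusted p = 0.704) and 0.14 (SE 0.36) in the order above, and none passed. miR-486a-3p, the other arm, was listed only with 10 reads in mannitol replicate 3 and 12 reads in high glucose replicate 3. The list thus had 3 tested identifiers but only 2 separate measurements, and none passed the adjusted threshold. In the order above 2, 3 and 0 of the 3 lay below 0, against 53.5%, 53.5% and 47.9% of all tested. The miR-486 pair made up the 2 of 3 whose groups did not overlap for high glucose against normal glucose (9.42% of all tested) and the 2 of 3 with an unadjusted edgeR p under 0.05 for high glucose against mannitol (5.26% of all tested).

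Widely expressed miRNAs with described roles in muscle differentiation formed a list of 20, of which 17 were listed and 14 tested. In edgeR 0 of 14 were past the adjusted or the unadjusted threshold in each comparison, where 2.77%, 5.26% and 1.39% of all tested were past the unadjusted one. Of the 14, 4, 3 and 7 lay below 0, against 53.5%, 53.5% and 47.9% of all tested, with medians of 0.15, 0.20 and -0.00. Groups did not overlap for 1 of 14 (miR-27b-3p), 3 of 14 (miR-155-5p, miR-181a-5p and miR-214-3p) and 0 of 14, against 9.42%, 10.2% and 3.32% of all tested. The 3 most abundant were miR-378a-3p, made within the metabolic regulator Ppargc1b, at a mean of 54383 CPM, miR-27b-3p, which targets the muscle stem cell factor Pax3, at 34990 CPM, and miR-148a-3p at 23387 CPM. Their log2 fold changes for high glucose against normal glucose were 0.17 (SE 0.26), 0.50 (SE 0.29) and 0.17 (SE 0.30). These are made in many tissues, and each was more than an order of magnitude above the mean of any member.

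Levels of cell type markers are set beside the members. Podocyte-associated miR-30 family members (5 of 5 listed) summed to 126420 to 140209 CPM in normal glucose, 106713 to 177083 CPM with mannitol and 149949 to 224982 CPM in high glucose. Most of that sum was miR-30a-5p, at 87587 to 106766, 79829 to 137096 and 107944 to 179693 CPM in the same order. miR-30d-5p stood at 31603 to 41183, 25759 to 39561 and 33972 to 42500 CPM, and miR-30b-5p, miR-30c-5p and miR-30e-5p were lower. Each of these but miR-30a-5p overlapped between normal and high glucose. miR-122-5p, the dominant miRNA of hepatocytes, stood at 9508 to 21808 CPM, 11659 to 22512 CPM and 9566 to 21078 CPM. It was highest in mannitol replicate 3 (22512 CPM), the library with the most miR-1a-3p. Normal glucose replicate 2 (21808 CPM) and high glucose replicate 1 (21078 CPM) came close, with miR-1a-3p at only 120.5 and 302.0 CPM. In normal glucose replicate 3 miR-122-5p stood at 19975 CPM, below replicate 2 of that group. Red blood cell miRNAs (4 of 4 listed) summed to 5023 to 8611 CPM, 3826 to 10981 CPM and 3124 to 4506 CPM. Of these, miR-144-3p was listed in mannitol replicate 2 alone, with 11 reads. The identical counts of miR-486a-5p and miR-486b-5p were taken once, and that pair, also known from muscle, made up most of the sum. The highest sum was again in mannitol replicate 3, while normal glucose replicate 3 had the lowest of its group. The more specific miR-451a was also highest in mannitol replicate 3, at 399 CPM, but in normal glucose it was highest in replicate 3, at 222, 128 and 243 CPM in replicates 1 to 3. Smooth muscle and mesenchyme miRNAs (5 of 5) summed to 1122 to 3428 CPM, 1355 to 2071 CPM and 1606 to 2096 CPM. That sum was highest in normal glucose replicate 3, where miR-143-3p stood at 2861 CPM. The others of this list were highest elsewhere. miR-214-3p peaked in mannitol replicate 3 (287 CPM) and miR-199a-3p in mannitol replicate 2 (403 CPM). miR-145a-5p and miR-199a-5p peaked in high glucose replicate 1 (35.9 and 41.4 CPM). White blood cell and platelet miRNAs (3 of 4, with miR-142a-3p at 0) stayed at 11.7 to 57.9 CPM over all libraries. Endothelial miRNAs (2 of 2) ranged from 229 to 825 CPM and kidney tubule miRNAs (2 of 3, with miR-204-5p at 0) from 2208 to 4916 CPM. Neuronal miRNAs (4 of 4) summed to 1542 to 3555 CPM, most of it miR-128-3p, at 1331 to 3370 CPM. The others were lower, with miR-129-5p at 117 to 387 CPM, miR-9-5p at 0 to 254 CPM and miR-124-3p at 13.8 to 48.0 CPM. The part of serum, of other cells or of any other source in the muscle miRNA levels was not tested, and in bulk vesicle RNA fewer vesicles of a source and less RNA per vesicle cannot be told apart.

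The miRNAs whose pattern over the 9 libraries was most like that of miR-1a-3p were found among 357 others by the Pearson correlation of log2(CPM + 10). They were miR-7688-5p (0.894), miR-214-3p (0.851), miR-467a-5p (0.760), miR-299b-3p (0.731) and miR-127-3p (0.730). All but miR-467a-5p had their highest level in mannitol replicate 3. miR-214-3p stood at 287 CPM there and at 112 to 175 CPM in the other libraries, and miR-127-3p at 1323 CPM against 458 to 891 CPM. miR-467a-5p was listed only in replicate 3 of each group, at 14.5, 11.9 and 9.01 CPM. In the other libraries its listed 0 can hide up to 9 reads, which would be 5.66 to 12.4 CPM. How far its likeness to miR-1a-3p reflects that limit was not tested. Without mannitol replicate 3 and normal glucose replicate 3 the correlations were 0.384, 0.329, 0.148, 0.219 and 0.210, so that the likeness rested on those libraries.

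Outside the members, both miR-133a-3p and miR-133b-3p were most like miR-331-5p (0.908 and 0.889). These values were 0.799 and 0.784 without mannitol replicate 3 and normal glucose replicate 2. Without mannitol replicate 3 alone, miR-331-5p stood at place 8 for miR-133a-3p and place 11 for miR-133b-3p. With all libraries the 5 nearest were the same for both: miR-331-5p, miR-345-3p, miR-7009-5p, miR-451a and miR-598-3p. One of these, miR-451a, is known from red blood cells and stood at 128 to 304 CPM outside mannitol replicate 3. Its correlation with miR-133a-3p was 0.860, and 0.644 without the 2 libraries farthest from the median of miR-133a-3p. Without mannitol replicate 3 alone, miR-451a stood at place 23 for both miR-133a-3p and miR-133b-3p. miR-206-3p was most like miR-6988-3p (0.893), miR-193b-5p (0.887), miR-669c-5p (0.886), miR-409-3p (0.859) and let-7b-5p (0.857).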

How the data were processed

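Small RNA was sequenced from podocyte vesicles in 9 libraries, 3 per treatment label, where a title without a number was counted as replicate 1. Per the file headers, each deposited table gives a total count per miRNA and a normalized value. The deposited counts were used as they stand. The normalized values are RPM, per the file headers and the values: the count divided by 1 constant per library (21155461 to 31887751), of which the miRNA counts are 3.43% to 9.71%, and which reads it covers is not stated in the labels. BWA, bcl2fastq and the build mm10 were used, per the submitters' processing notes, which give no versions here. miRNAs below 10 reads appear as 0.

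CPM were computed from the total of all miRNA counts of a library. Tests used edgeR 4.0.16 in R 4.3.3 (TMM scaling, filter by expression, robust quasi-likelihood, 1 fit of 9 libraries, Benjamini-Hochberg adjustment over 361 miRNAs, threshold 0.05), which was tested on simulated data. Members were also compared by exact two-sided permutation tests of mean CPM, and single values have 95% exact binomial intervals. Alternatives included DESeq2 1.42.0 and limma 3.58.1 (voom). Libraries of a group differed by far more than counting error (chi-square per degree of freedom 74.8 to 645), so none was counted as deposited more than once. Named are the 6 members, the listed members of the other striated-muscle list, the 3 most abundant of the muscle differentiation list and the 5 nearest by correlation to each member. The members and lists were chosen with earlier results of these data known.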

Additional observations from a re-analysis of the deposited data

How the results depend on the processing

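Over 12 fold changes of the members, 225 alternative values were computed, of which 204 kept their direction and their side of the threshold, 3 (miR-1a-3p with DESeq2) kept their direction but had no p, 16 changed direction and 2 (miR-1a-3p without the filter on low counts) passed the threshold. Of the 12, 4 changed direction under none of these: miR-133a-3p and miR-133b-3p for high glucose against mannitol, miR-133b-3p for mannitol against normal glucose, and miR-206-3p for high glucose against normal glucose (-0.68 to -0.24 over single libraries left out). None of those passed the test.

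No miRNA passed in any comparison, with 10, 19 and 5 at an unadjusted edgeR p under 0.05. Without the filter 2 passed for high glucose against normal glucose, 3 for high glucose against mannitol (miR-1a-3p among them) and 1, miR-1a-3p, for mannitol against normal glucose. DESeq2 called 1 for high glucose against mannitol. Leaving out each library in turn gave 0 to 0, 0 to 1 (1 without mannitol replicate 2) and 0 to 0 calls. With the replicate block the calls were 0, 0 and 0, with 19, 52 and 17 at an unadjusted p under 0.05. Correlations between deviations of same-numbered libraries were -0.058 to 0.521, over 0.1 in 7 of 9 pairs. As 2 pairs fell short and the labels tie the numbers to no batch or day, the libraries were not treated as paired; that 15 of 18 checks found a library's own number nearest is a hint from the data that they may be. With the block miR-133a-3p for high glucose against mannitol had an unadjusted edgeR p of 0.0257 (0.131 without). Its log2 fold change was then -0.65 (edgeR adjusted p = 0.306, range 0.192 to 0.9998 over its alternatives). By the unadjusted p 1 of 4 members was then under 0.05, against 52 of the 361 miRNAs tested.

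For high glucose against normal glucose, miR-1a-3p was 0.14 with limma-voom and 0.66 with the replicate block, and -1.22 to 1.13 over single libraries left out. miR-133b-3p there was -0.0096 with size factors (RLE), -0.0144 with the library constant, -0.0064 without the filter and -0.048 with the replicate block; over libraries left out it was -0.44 to 0.31, and miR-133a-3p was -0.63 to 0.0901. For high glucose against mannitol, miR-1a-3p was -3.25 to 0.36 and miR-206-3p -0.17 to 0.0938. For mannitol against normal glucose, miR-1a-3p was -1.07 to 3.85 and miR-133a-3p -0.0764 to 0.88, and miR-206-3p was 0.17 with the library constant. That scaling moved the median of all tested to -0.12, -0.59 and 0.50. The cause was not tested.

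Ratios of mean CPM ranged, over libraries left out, from 0.388 to 2.283, 0.0999 to 1.219 and 0.453 to 15.7 for miR-1a-3p in the order of comparisons above. For high glucose over normal glucose they were 0.590 to 1.032 for miR-133a-3p and 0.691 to 1.134 for miR-133b-3p, and for mannitol over normal glucose 0.984 to 1.912 for miR-133a-3p. With the deposited normalized values miR-206-3p was 1.125 for mannitol over normal glucose. With listed zeros set to 9 reads, miR-208b-3p would average 7.72, 5.61 and 7.79 CPM. Of the 5 miRNAs nearest to miR-1a-3p, 1 was shared by rank correlation, 5 with a pseudocount of 1, and 0 (without mannitol replicate 3) to 5 over libraries left out. miR-133b-3p has no value of its own where it was summed with miR-133a-3p. Depth limits miR-133b-3p and the miR-208 pair most.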
